A study of Rattus norvegicus with 20 samples.

Results

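The genes described here code for colony-stimulating factors, cytokines of the interleukin-6 (IL-6) family, their receptors and one inhibitor of their signal, measured in rat lung after inhalation of crystalline silica. They were chosen by name: 10 symbols were looked for in the symbol column of the array table, and 7 of them had a row among 21792. The ligands CSF1, CSF2, CSF3, IL6 and LIF, the receptor OSMR and the inhibitor SOCS3 were found. No row carried the receptor genes Csf1r, Csf2ra or Csf2rb, and these 3 were not analysed here. Of the 7 genes, 4 (Csf1, Csf2, Osmr and Socs3) were detected on enough arrays to be tested among 10488 genes.

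The lungs came from male CDF Fisher 344 rats of 3 months, 1 array per rat. Of the 20 rats, 8 inhaled crystalline silica, a mineral dust, at a concentration of 15 mg/m3 during 6 h of each of 5 days, and 12 breathed air. Tissue was taken 16 h after the last exposure, which the labels call 0 weeks after exposure, and the same schedule is given for the air rats. The silica rats carry identifiers 81 to 88, and the identifiers of the air rats form 3 runs of 4, from 89 to 92, from 105 to 108 and from 137 to 140. At a detection p under 0.01, a silica array detected 9480 to 10820 genes and an air array 9434 to 10840. The surfactant gene Sftpc, which marks the lung epithelium, was detected on all 8 silica and all 12 air arrays.

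Colony-stimulating factors keep myeloid cells alive and direct their maturation. CSF1 acts on macrophages. GM-CSF, the product of Csf2, is made by the lung epithelium and other cells and is needed for alveolar macrophages to mature and clear surfactant. G-CSF, the product of Csf3, drives the production of neutrophils. Cytokines of the IL-6 family signal through receptors that share the subunit gp130, encoded by Il6st, and through JAK kinases and the transcription factor STAT3. SOCS3 is induced by that signal and switches it off.

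The promoters of Csf2 and Il6 are shown to set their elements side by side. Of the 2 tested ligands, Csf2 had the larger difference between the groups, while Il6 is a ligand that was not above background in either. Each line holds the 250 bases before the annotated start site, from RefSeq's table for the rat assembly GRCr8, read 5′ to 3′ on the gene's own (minus) strand. The Csf2 window spans chr10:38889674-38889923 and that of Il6 chr4:5894576-5894825. Capitals mark matches to a STAT motif (TTCNNNGAA), an NF-kB motif (GGGANNNNCC) or a cyclic AMP response element (TGACGTCA), each searched on both strands.
Csf2: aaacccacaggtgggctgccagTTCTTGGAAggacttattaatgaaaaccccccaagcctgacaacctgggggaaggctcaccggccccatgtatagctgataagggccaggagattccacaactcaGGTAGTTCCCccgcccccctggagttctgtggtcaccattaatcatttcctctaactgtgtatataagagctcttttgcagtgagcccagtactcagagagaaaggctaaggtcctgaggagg
Il6: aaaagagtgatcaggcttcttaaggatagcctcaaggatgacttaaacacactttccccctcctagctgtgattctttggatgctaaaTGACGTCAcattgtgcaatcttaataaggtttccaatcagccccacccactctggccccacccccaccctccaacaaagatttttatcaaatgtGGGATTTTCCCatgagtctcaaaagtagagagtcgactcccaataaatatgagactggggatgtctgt
In the Csf2 window the STAT motif began 228 bases before the start site, and an NF-kB motif, read on the opposite strand, covered bases 123 to 114 before it. The Il6 window held the response element from base 162 to base 155 and a pair of overlapping NF-kB matches, one per strand, between bases 68 and 58. Of 33469 rat promoters in the table, 7.67% held the STAT motif, 16.4% the NF-kB motif and 1.59% the response element in these 250 bases. An AP-1 motif (TGANTCA), which 6.34% of promoters held, was found in neither, but stood 33 bases before the start site of Osmr. In its 250 bases Socs3 had no match to any of the 4 motifs, and bases outside the window were not searched. The windows of Osmr and Socs3 are not printed, because an annotated transcript of the gene reaches into them. Their start site is thus not the outermost annotated one. The table held an entry for 4 of the 7 genes, and a match is a description of letters, not a bound site.

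Of the 2 ligands that could be tested, Csf1 and Csf2, Csf2 was the one that rose. Csf2 (array identifier ILMN_1365336) had a lowest, median and highest log2 intensity of 5.85, 5.90 and 6.30 on the 8 silica arrays, against 5.02, 5.27 and 5.66 on the 12 air arrays. Every silica array lay above every air array, so the groups did not overlap. The mean was 5.99 ± 0.16 (SD, n = 8) in silica lungs and 5.30 ± 0.20 (SD, n = 12) in air lungs, a log2 fold change of 0.69 ± 0.09 (SE) or 1.61-fold (95% interval 1.42 to 1.83, limma adjusted p = 3.74e-06). Of all genes tested, 11.7% rose, 12.7% fell, and 1.83% had every silica array above every air array. In whole lung RNA, more cells that make a transcript and more of it per cell cannot be told apart.

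Csf2 was a dim gene. Its raw intensity was 91.4 to 122.9 on silica arrays and 64.5 to 97.8 on air arrays, and the standard error over the beads of an array was 3.28 to 4.71 and 2.46 to 5.43 intensity units. These raw ranges overlapped. Set against the inferred mean of each array's negative controls, the signal was 1.66 to 2.08 times that mean on silica arrays and 1.26 to 1.68 times on air arrays. Csf2 was detected on all 8 silica arrays and on 5 of 12 air arrays, so its air level rests partly on arrays where it was not well above background. Fisher's exact test on those counts gave an unadjusted p of 0.0147 and an adjusted p of 1. By that test 0 of the 7 genes passed, against 4 of all 21792 rows (0.0184%), and Csf2 was the 1 gene with an unadjusted p under 0.05. At a detection p under 0.05 Csf2 was detected on 8 of 8 silica and 11 of 12 air arrays.

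The size of the Csf2 difference depended on how the background was handled, while its call did not. It was 0.41 with an offset of 50, 0.39 with no background correction, 0.23 in the authors' deposited log2 values and 0.081 with limma's default estimate of the controls. All 15 alternatives that could test it kept it past the threshold, with adjusted p-values between 1.14e-06 and 0.00477, and so did each of the 20 fits without 1 array (0.64 to 0.72). Silica rat 86 and air rats 106 and 139 had the highest control means, 68.4 to 74.0 against at most 58.9 on the other arrays. Without these 3 arrays the Csf2 difference was 0.68 (adjusted p = 3.79e-05).

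**Figure D1:**
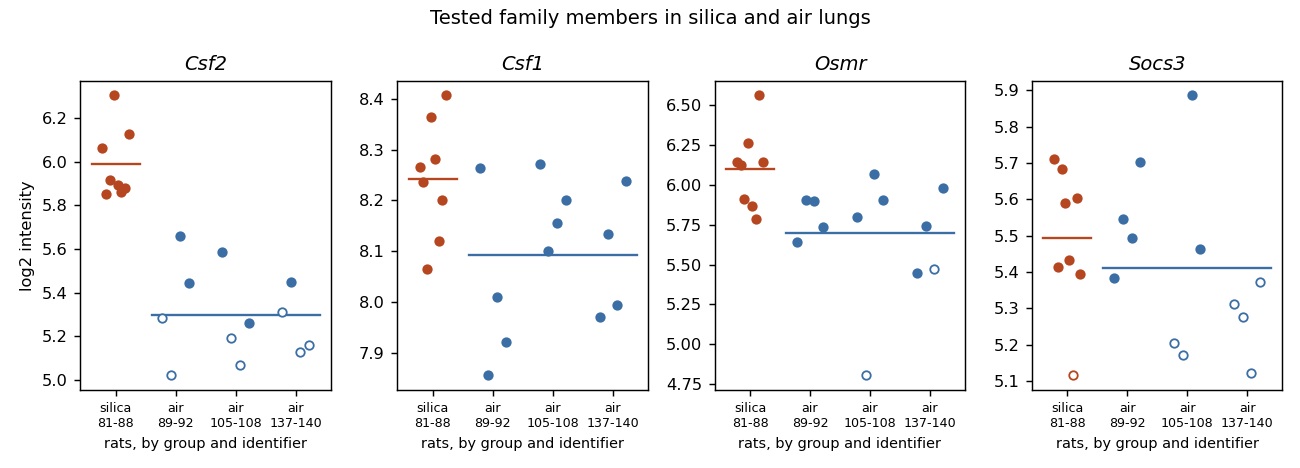
Log2 intensity (normalized, vertical axes that differ between panels and do not start at 0) of the 4 tested genes for each rat, with the 8 silica rats on the left and the 12 air rats in their 3 runs of identifiers on the right. Filled points were detected at p under 0.01, open points were not, and lines are group means. For Csf2 the 8 silica values lie between 5.85 and 6.30, above the 12 air values between 5.02 and 5.66, whereas the groups overlap for Csf1, Osmr and Socs3.

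Csf1, the macrophage growth factor, was measured well above background in every lung and did not pass the test. Csf1 (ILMN_1363245) had a lowest, median and highest log2 intensity of 8.06, 8.25 and 8.41 on silica arrays, against 7.86, 8.12 and 8.27 on air arrays. On 3 of 8 silica arrays it lay above every air array, and 5 air arrays lay below every silica array. The means were 8.24 ± 0.12 (SD, n = 8) in silica lungs and 8.09 ± 0.14 (SD, n = 12) in air lungs. The log2 fold change was 0.15 ± 0.06 (SE) or 1.11-fold (95% interval 1.02 to 1.21, limma adjusted p = 0.0722). It passed without silica rat 83 (0.18, adjusted p = 0.0451) and without air rat 89 (0.17, adjusted p = 0.0473), while 16 other alternatives, with adjusted p-values between 0.0620 and 0.608, and the other 18 fits without 1 array did not.

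Csf3, Il6 and Lif stayed near the level of the negative controls. Csf3 (ILMN_1349473) was detected on 1 of 8 silica arrays and on 0 of 12 air arrays. Its raw intensity was 116.1 in silica rat 86, with a bead standard error of 11.4, and 60.3 to 71.0 in the other 7 silica rats. In air rat 139 it was 104.3, with a bead standard error of 8.84, and it was 55.6 to 77.0 in the other 11 air rats. These high values stood on 2 of the 3 arrays with the highest control means, and they were 1.61 and 1.41 times those means. The part of the array background in the Csf3 value of rat 86 was not tested.

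Il6 (ILMN_1355154) was detected on 0 of 8 silica and 0 of 12 air arrays. Its raw intensity had a lowest, median and highest value of 53.1, 59.0 and 85.5 on silica arrays, against 53.4, 60.2 and 80.0 on air arrays. Relative to the control mean this was 0.995 to 1.18 times on silica arrays and 0.996 to 1.18 times on air arrays, and the groups covered the same range. Lif (ILMN_1364748), which codes for leukemia inhibitory factor, was likewise detected on 0 of 8 and 0 of 12 arrays. Its signal was 0.900 to 1.08 times the control mean on silica arrays and 0.917 to 1.19 times on air arrays. No fold change is given for these 3 genes, since a change below the background of the array was not detectable.

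**Figure D2:**
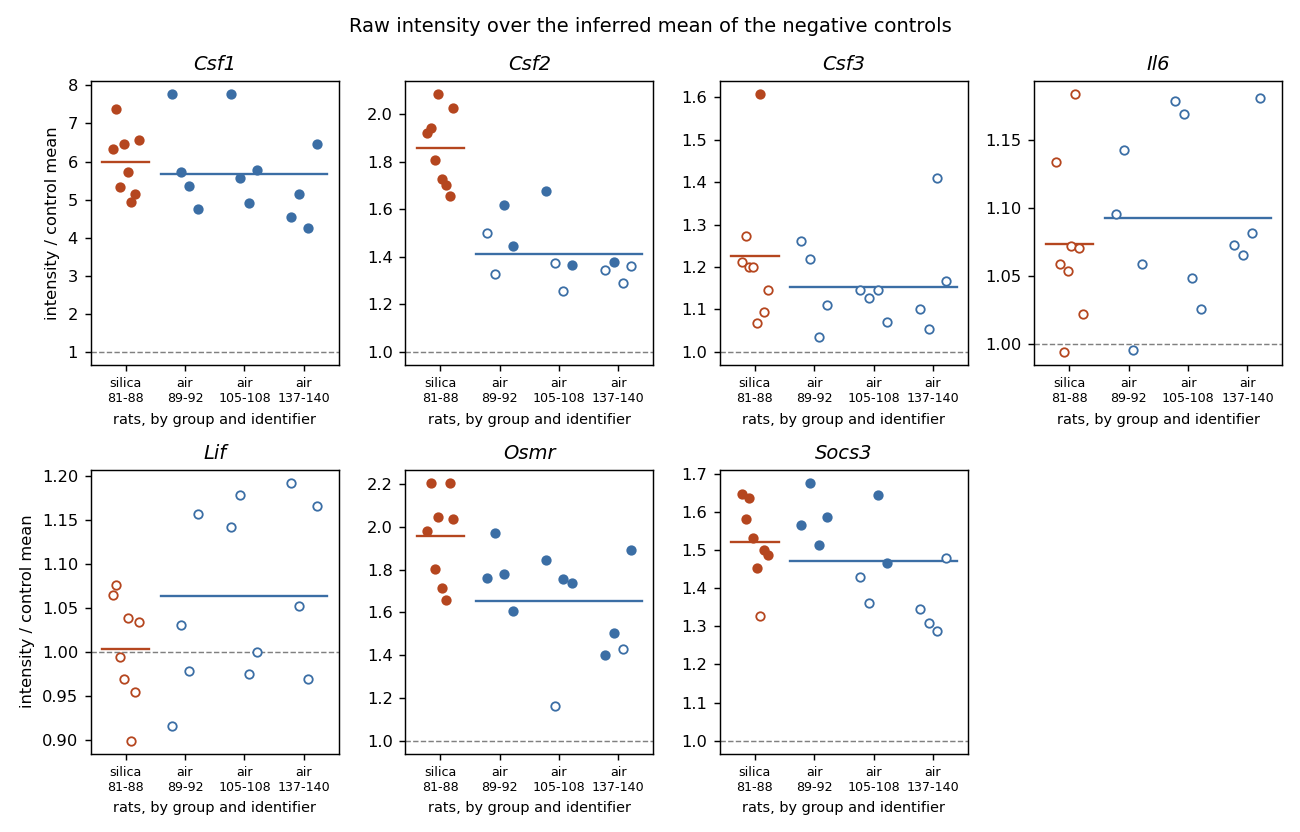
Raw intensity divided by the array's inferred control mean (vertical axes that differ between panels; the dashed line at 1 is the control mean) for the 7 genes, with silica rats left of air rats, filled points detected at p under 0.01 and lines at the group means. Csf1 is at 4.94 to 7.38 times the control mean in silica and 4.25 to 7.78 times in air lungs, Il6 and Lif lie around 1 in both groups, and a single silica point of Csf3 (1.61) and a single air point (1.41) stand above the rest.

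The one receptor gene with a row, Osmr, rose, by less than Csf2. It codes for the subunit that binds oncostatin M together with gp130. Osmr (ILMN_1359159) had a lowest, median and highest log2 intensity of 5.79, 6.13 and 6.56 on silica arrays, against 4.81, 5.77 and 6.07 on air arrays. On 5 of 8 silica arrays it lay above every air array, and 6 air arrays lay below every silica array, so the groups overlapped in the middle. The mean was 6.10 ± 0.25 (SD, n = 8) in silica lungs and 5.70 ± 0.34 (SD, n = 12) in air lungs, a log2 fold change of 0.40 ± 0.13 (SE) or 1.32-fold (95% interval 1.10 to 1.59, limma adjusted p = 0.0264). It was detected on 8 of 8 silica and 10 of 12 air arrays.

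The Osmr call depended on single arrays. It was lost without silica rat 84 (0.38, adjusted p = 0.0506), without silica rat 87 (0.33, adjusted p = 0.0654), which had the highest value, and when all 21792 rows were tested (adjusted p = 0.0527). The lowest air value, 4.81, was that of rat 106, one of the arrays with a high control mean. Without the 3 arrays of highest control mean the difference was 0.33 (adjusted p = 0.0174). It was 0.25 with an offset of 50, 0.24 with no background correction, 0.15 in the authors' deposited log2 values and 0.056 with limma's default estimate of the controls. Of 15 alternatives 12 kept the call.

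Socs3, the feedback inhibitor, did not pass the test. Socs3 (ILMN_1364483) had a lowest, median and highest log2 intensity of 5.12, 5.51 and 5.71 on silica arrays, against 5.12, 5.38 and 5.89 on air arrays. The groups overlapped over nearly their whole range, with the highest value in air rat 107. The means were 5.49 ± 0.20 (SD, n = 8) in silica lungs and 5.41 ± 0.22 (SD, n = 12) in air lungs, and the log2 fold change was 0.081 ± 0.096 (SE), with a 95% interval of −0.12 to 0.28 or 0.922-fold to 1.21-fold (limma adjusted p = 0.581). It was detected on 7 of 8 silica and 6 of 12 air arrays. In none of 15 alternatives or 20 fits without 1 array did it pass.

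The air rats were split by their 3 runs of identifiers, which could be batches, and the silica rats were set against each. The first run continues the identifiers of the silica rats. Csf2 averaged 5.99 ± 0.16 (SD, n = 8) in silica rats, against 5.35 ± 0.27 in air rats 89 to 92, 5.28 ± 0.22 in air rats 105 to 108 and 5.26 ± 0.15 in air rats 137 to 140 (SD, n = 4 each). The differences were 0.63, 0.71 and 0.72, and against rats 89 to 92 alone the limma adjusted p was 0.00477. These 3 comparisons share the silica arrays. Csf2 was thus past the threshold against each run, although no run held both silica and air rats.

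Osmr differed by 0.31 (adjusted p = 0.176) from air rats 89 to 92, by 0.46 (adjusted p = 0.123) from air rats 105 to 108 and by 0.44 from air rats 137 to 140, where it passed. In the run 105 to 108 the air SD of Osmr was 0.57, with rat 106 low, against 0.13 in the run 89 to 92. Socs3 was lower in silica rats than in air rats 89 to 92 (−0.039, adjusted p = 0.890) and higher than in the other runs (0.061 and 0.22), past the threshold in none. Csf1 differed by 0.23, 0.061 and 0.16 from the 3 runs, also without passing. Against air rats 89 to 92 alone, 1 of the 4 tested genes (Csf2) rose and none fell, where 3.76% of all genes rose and 2.42% fell.

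Between the 3 runs of air rats, 0 of the 4 tested genes differed by limma's moderated F test, with adjusted p-values of 0.681 for Csf1, 0.951 for Csf2, 0.934 for Osmr and 0.690 for Socs3. None had an unadjusted p under 0.05. Of all genes tested, 17 (0.162%) passed that test.

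**Figure D3:**
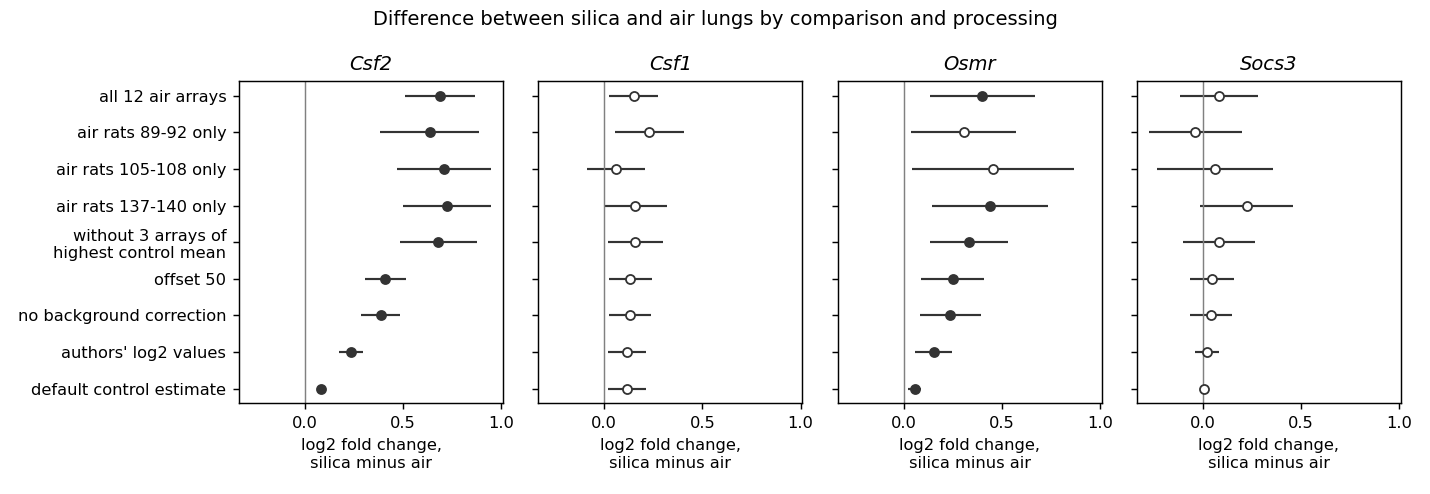
Log2 fold change of silica minus air (horizontal axis) with its 95% interval for the 4 tested genes, against all 12 air arrays (top), against each run of air rats, without 3 arrays, and with other processing (below). Filled points have an adjusted p under 0.05: Csf2 is filled in every line shown, from 0.72 against air rats 137 to 140 to 0.081 with the default control estimate, Osmr is open against air rats 89 to 92 and 105 to 108, and Csf1 and Socs3 are open throughout.

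Whether the genes varied together between rats was examined within each group, over 12 relations: the 6 pairs of the 4 tested genes in silica and in air rats. The pair Osmr and Socs3 was chosen first and the others after values had been seen. None of the 12 passed after Benjamini-Hochberg adjustment, and 2 had an unadjusted permutation p under 0.05. In air rats Osmr and Socs3 had r = 0.61 (n = 12, permutation p = 0.0101, adjusted 0.121) and rho = 0.62 (permutation p = 0.0377, adjusted 0.453), and r was 0.64 without the 2 rats farthest from the Osmr median. Air rats 106 and 139, whose arrays had high control means, were low in both genes. In silica rats the same pair had r = 0.49 (n = 8, exact permutation p = 0.202, adjusted 0.806) and rho = 0.36 (exact permutation p = 0.389, adjusted 0.667), and r was 0.025 without the 2 farthest rats. Silica rat 86, whose array also had a high control mean, was among these 2. It had the lowest silica value of both Osmr (5.79) and Socs3 (5.12). Csf1 and Csf2 had r = 0.72 in silica rats (n = 8, exact permutation p = 0.0457, adjusted 0.274), rho = 0.62 (exact permutation p = 0.115, adjusted 0.667) and r = 0.79 without the 2 farthest. In air rats Csf1 and Csf2 had r = 0.14 (n = 12, permutation p = 0.672, adjusted 0.826) and rho = 0.19 (permutation p = 0.556, adjusted 0.667), with r = −0.019 without the 2 farthest. A run of 4 air rats was too small for a correlation of its own.

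Of the other ligands and receptors of these families 9 were tested and 2 changed, where 11.7% of all genes rose and 12.7% fell. Of 12 further ligands 8 had a row and 4 were tested, of which 0 rose and 1 fell, with a median log2 fold change of −0.082, beside −0.017 over all genes tested. The one that fell was Il34, a second ligand of the CSF1 receptor. Its log2 intensity was 5.40, 5.74 and 6.14 (lowest, median and highest) on silica arrays, against 5.76, 6.07 and 6.30 on air arrays, and 4 silica arrays lay below every air array. The log2 fold change of Il34 was −0.32 ± 0.09 (SE, adjusted p = 0.0101), and −0.37 (adjusted p = 0.0757) against air rats 89 to 92 alone. Its call was also lost against air rats 105 to 108 (−0.27, adjusted p = 0.158) and 137 to 140 (−0.34, adjusted p = 0.0956).

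Of 10 further receptors 10 had a row and 5 were tested, of which 1 rose and 0 fell, with a median log2 fold change of −0.0048. Csf3r, the G-CSF receptor of neutrophils, had a lowest, median and highest log2 intensity of 5.14, 5.45 and 5.71 on silica arrays, against 4.85, 5.13 and 5.61 on air arrays. It was detected on 6 of 8 silica and 2 of 12 air arrays, just the 8 arrays that the filter asks for, so its air level was mostly not well above background. On 1 silica array it lay above every air array. The log2 fold change was 0.26 ± 0.09 (SE, adjusted p = 0.0363), and 0.10 (adjusted p = 0.682) against air rats 89 to 92 alone. The Csf3r call was also lost when all rows were tested (adjusted p = 0.0597), with median scaling (0.26, adjusted p = 0.0608), with the replicate block (0.21, adjusted p = 0.135) and in 10 of 20 fits without 1 array (adjusted p up to 0.0903). The rows of Il6st, the shared receptor subunit, and of Osm, the ligand of Osmr, were too dim to test and are named after their values were seen: Il6st was detected on no array, and Osm on 0 of 8 silica and 1 of 12 air arrays.

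Among 11 JAK kinases and STAT factors 10 were tested, of which 1 rose and 1 fell, with a median log2 fold change of 0.098. Over all genes tested, 11.7% rose and 12.7% fell. Jak3, a kinase of lymphoid and myeloid cells, was higher in silica lungs by 0.16 ± 0.05 (SE, adjusted p = 0.0156), with a mean of 10.50 ± 0.10 in silica lungs (SD, n = 8), against 10.34 ± 0.10 in air lungs (SD, n = 12). Stat4, a factor of T and natural killer cells, was lower by −0.30 ± 0.05 (SE, adjusted p = 3.28e-04), with a mean of 7.68 ± 0.13 in silica lungs (SD, n = 8), against 7.98 ± 0.10 in air lungs (SD, n = 12). Against air rats 89 to 92 alone neither passed, with Jak3 at 0.21 (adjusted p = 0.0513) and Stat4 at −0.22 (adjusted p = 0.106). The Jak3 call was also lost against each of the other runs (adjusted p = 0.150 and 0.168) and with median scaling (0.11, adjusted p = 0.309). Of 10 lymphocyte markers tested 8 fell and 0 rose. Their summed normalized intensity was 2271 to 2887 in silica and 2691 to 3875 in air lungs. Against air rats 89 to 92 alone 1 of these markers fell, where 3.76% of all genes rose and 2.42% fell. The part of these cells in the Stat4 result was not tested.

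All 15 other inhibitors of JAK-STAT signalling were tested, of which 3 rose and 3 fell, with a median log2 fold change of 0.010. The shares over all genes tested were 11.7% rising and 12.7% falling. The phosphatases Ptpn6 (0.23 ± 0.06 SE, adjusted p = 0.00419) and Ptpn2 (0.16 ± 0.05 SE, adjusted p = 0.0138), which remove phosphate from JAKs and STATs, were higher in silica lungs. The genes Pias3 (−0.19 ± 0.04 SE, adjusted p = 0.00162) and Pias1 (−0.21 ± 0.06 SE, adjusted p = 0.0101), which code for inhibitors that act on STAT proteins in the nucleus, were lower. Against air rats 89 to 92 alone, 0 of the 15 passed in either direction, where 3.76% of all genes rose and 2.42% fell. With median scaling the calls of Ptpn6 (0.18, adjusted p = 0.153) and Ptpn2 (0.097, adjusted p = 0.516) were lost.

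Of 20 genes listed as targets of STAT3 16 were tested, of which 5 rose and 1 fell, with a median log2 fold change of 0.16. Among all genes tested, 11.7% rose and 12.7% fell. The list was chosen with earlier results of these data known, so its counts beside these shares are a description, not a test. Lcn2, which codes for lipocalin 2, a binder of bacterial iron carriers, lay at 9.44, 9.70 and 10.07 (lowest, median and highest log2 intensity) on silica arrays, against 6.19, 7.21 and 8.37 on air arrays, a log2 fold change of 2.48 ± 0.21 (SE, adjusted p = 1.13e-08). Hp, which codes for the haemoglobin-binding haptoglobin, rose by 1.03 ± 0.09 (SE, adjusted p = 2.75e-08), and Fgg, a chain of fibrinogen, by 0.56 ± 0.06 (SE, adjusted p = 1.06e-06). The growth regulator Myc rose by 0.40 ± 0.06 (SE, adjusted p = 1.10e-05). For each of these 4 genes every silica array lay above every air array, as for 1.83% of all genes tested. The 4 were named for their smallest p, which favours groups that do not overlap, so the 2 are not like sets. Ccnd1 was the one that fell (−0.28, adjusted p = 4.53e-04). Another 10 did not pass, among them Fgb, a second fibrinogen chain (0.19, adjusted p = 0.581). Against air rats 89 to 92 alone 5 of the 16 rose and 0 fell, where 3.76% of all genes rose and 2.42% fell.

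Of 18 genes listed by name as CSF1 and GM-CSF response genes of myeloid cells 14 were tested. Of these 8 rose and 1 fell, with a median log2 fold change of 0.24, where 11.7% of all genes rose and 12.7% fell. Because this list, too, was chosen with earlier results of these data known, its counts describe and do not test. Whether CSF1 or GM-CSF acted on its genes in these lungs was not tested. Bcl2a1, a survival factor of myeloid cells, had a lowest, median and highest log2 intensity of 10.96, 11.01 and 11.29 on silica arrays, against 9.92, 10.36 and 10.70 on air arrays, a log2 fold change of 0.69 ± 0.09 (SE, adjusted p = 4.31e-06). Irf8, a factor of monocyte development (0.40 ± 0.07 SE, adjusted p = 3.94e-04), and Abcg1, a cholesterol exporter of alveolar macrophages (0.38 ± 0.07 SE, adjusted p = 5.42e-04), rose as well. Irf8 was detected on 7 of 8 silica and 5 of 12 air arrays. Its difference was 0.043 (adjusted p = 5.21e-04) with limma's default estimate of the controls. Car4, a carbonic anhydrase that in the lung is best known from capillary endothelium, was lower by −0.27 ± 0.04 (SE, adjusted p = 6.78e-05). Against air rats 89 to 92 alone 2 of the 14 rose and 1 fell, where 3.76% of all genes rose and 2.42% fell. In that comparison neither Irf8 (0.34, adjusted p = 0.0688) nor Abcg1 (0.26, adjusted p = 0.0991) passed.

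Markers of several cell types also differed between the groups, where 11.7% of all genes tested rose and 12.7% fell. The marker lists were likewise chosen with earlier results of these data known. Of 11 neutrophil markers tested 7 rose and 0 fell, Csf3r among them, and their summed normalized intensity was 5586 to 7580 in silica and 2594 to 4137 in air lungs, with S100a9, Ltf and Mpo detected on no array. Cd177 made up 37.4% to 50.8% of that sum in silica and 8.87% to 27.0% in air lungs, and without it the sums were 3039 to 4199 in silica and 2363 to 3107 in air lungs. Of 10 monocyte and macrophage markers tested 6 rose and 0 fell, with sums of 19441 to 21787 in silica and 10503 to 18248 in air lungs. Lgals3 made up 66.7% to 71.1% of them in silica and 67.5% to 74.4% in air lungs, and without it they were 6016 to 7108 in silica and 3365 to 5603 in air lungs. The ranges of both sums did not overlap, while those of the neutrophil sum without Cd177 did. Endothelial markers fell in 3 of 5 cases and rose in 0, with sums of 13632 to 17935 in silica and 16080 to 19578 in air lungs. Epithelial markers rose in 1 and fell in 2 of 8 cases (sums of 86506 to 95294 in silica and 84118 to 94879 in air lungs). Fibroblast and smooth muscle markers fell in 2 of 4 cases and rose in 0 (16116 to 18841 in silica and 17499 to 24090 in air lungs). Red blood cell markers fell in 1 of 3 and rose in 0 (20568 to 24665 in silica and 20575 to 23877 in air lungs). Against air rats 89 to 92 alone the counts were smaller: 5 neutrophil and 3 monocyte and macrophage markers rose, 1 endothelial and 1 epithelial marker fell, and no fibroblast, smooth muscle or red blood cell marker passed. In that comparison 3.76% of all genes rose and 2.42% fell. The part of these cell types in the values of Csf2, Osmr and the lists above was not tested.

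**Figure D4:**
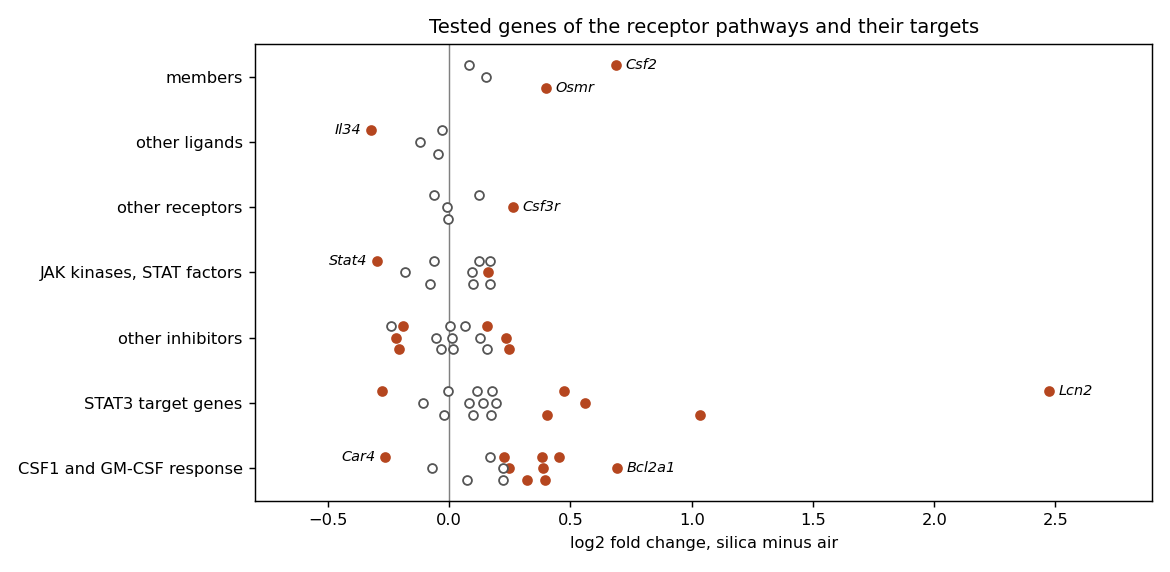
Log2 fold change of silica minus air (horizontal axis) of each tested gene, 1 point per gene, in the named group of genes (top line) and 6 lists of related genes. Filled points have an adjusted p under 0.05, where 11.7% of all genes tested rose and 12.7% fell. Among them are 2 of the 4 named genes and 5 rising and 1 falling gene listed as STAT3 targets. Also filled are 8 rising and 1 falling gene listed for the CSF1 and GM-CSF response. Lcn2 (2.48) lies farthest to the right.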

How the data were processed

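Lung RNA of 8 silica and 12 air rats was measured on Illumina rat bead arrays, 375 ng of RNA each. Mean bead intensities, deposited by the authors for each row and array, had, by their values, not been corrected for background or normalized; BeadStudio, lumi and limma are named in the submitters' processing notes. Detection p-values and bead standard errors stand in the same deposited table. The authors' deposited log2 values (array means 8.354 to 8.357) list 12763 of the 21792 rows; their exact transformation and the genome build are not given in the sources used here.

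Intensities were corrected with limma 3.58.1 in R 4.3.3 by normexp with an offset of 16, where the control mean and SD came from the detection p-values of the 21109 rows that average no several probes, then quantile-normalized as log2 values. The 10488 rows that 8 or more arrays detected at p under 0.01 were tested 2-sided with limma (lmFit, and eBayes with its trend option), which had been tested on simulated data. Their p-values were adjusted by Benjamini-Hochberg over all 10488, at 0.05. The offset draws the differences of dim genes toward 0. Correlations used scipy 1.17.1 with all pairings for 8 rats and 100000 resamples for 12. Gene names were updated through a RefSeq table of GRCr8, used for names; the promoter windows come from its promoter table of the same build. The number of arrays limits the precision.

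The members, the gene lists and the control estimate were chosen with earlier results of these data known. From each list up to 4 genes with an adjusted p under 0.05 and smallest p are named. Alternatives covered background, normalization, filters, each run of air rats, a replicate block and each array left out; fits without 3 arrays and with the control mean as a covariate were added after the data were seen. The files name no chip or scan date, so an array batch was not tested.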

Additional observations from a re-analysis of the deposited data

Results flagged for a closer look

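The log2 intensity of 44 genes in the 8 silica rats was searched for a single rat far from the others by Dixon's criterion, and 3 genes had one, where chance gives about 1 in 20 groups. Csf3 was 5.69 in silica rat 86, against 4.67 to 4.93 in the other 7 silica rats, on an array with a high control mean of 72.2. Abcg1 was 12.53 in silica rat 83, against 12.29 to 12.38 in the others. Cd14, a monocyte receptor for bacterial lipopolysaccharide, was 10.45 in silica rat 87, against 10.02 to 10.18 in the others.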

How the results depend on the processing

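Csf2 kept its direction and its side of the threshold in every alternative that could test it. It could not be tested among genes detected on all 20 arrays, and neither could Osmr and Socs3, so 0 of the tested genes of the family changed there, against 2 as reported. That count was 1 when all rows were tested, 1 against the run of air rats 89 to 92 and 1 against the run 105 to 108, where Osmr was lost, and 1 to 3 when each array was left out in turn. Over all genes 2566 changed as reported, 1388 with median scaling, 648 against air rats 89 to 92 only, 1542 with the replicate number as a block, and 2182 to 2763 with 1 array left out. The other runs, also of 4 air rats, gave 1820 (rats 105 to 108) and 2174 (rats 137 to 140). The cause of the lower counts was not tested. The one reversal was that of Socs3 against air rats 89 to 92 (−0.039, adjusted p = 0.890). Counts of 0 for detection by Fisher's exact test, for differences between air runs by limma's F test and for correlations stayed at 0 in their alternatives. The labels number replicates 1 to 8 in both groups, yet same-numbered arrays did not vary together (8 pairs, correlations from −0.23 to 0.16, 1 over 0.1, and 0 silica arrays correlated best with their own number), so the numbers were not taken as pairs; with the replicate block Csf2 was 0.68 and Osmr 0.37, both past the threshold. Signals near the negative controls limit Csf3, Il6 and Lif, and fold sizes of Csf2, Osmr and Socs3 depend on the background estimate. Over the named genes, 57 of 650 values lost their call in other alternatives (23 against air rats 89 to 92, 9 against 105 to 108, 7 against 137 to 140, 9 with median scaling, 4 with the replicate block and 5 in the rest), as did 20 of 820 with 1 array left out, where 2 gained it.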
